A study of Rattus norvegicus with 10 samples.

Results

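Collagens, laminins and the proteins that bind them form the extracellular matrix around cells. The collagen and matrix genes described here are those whose symbol has the form of a collagen chain (Col, a number, a and a number) or of a laminin chain (Lama, Lamb or Lamc with 1 digit), together with Fn1, Dcn, Lum, Bgn, Ogn, Fmod, Sparc, Nid1, Nid2, Hspg2, Fbln1 and Fbln2. In the table of 17168 genes this gave 43 genes, made up of 27 collagen chains, 7 laminin chains and 9 of the 12 genes listed by name. Nid1, Hspg2 and Fbln2 were not analysed here, nor were chains such as Col4a2, Col6a1, Lama2, Lama4 and Lamb1. The values come from mRNA libraries of 10 female TgF344-AD rats (left hippocampus), labelled with the genotype Tg-AD, a line carrying Alzheimer's disease transgenes. Tissue was taken at the age of 11 months from perfused animals. The 5 untreated animals ate rodent chow, and the 5 RG2833 animals ate chow with 750 mg of RG2833 per kg for 6 months from the age of 5 months. RG2833 inhibits the histone deacetylases HDAC1 and HDAC3, and the series asks how it changes hippocampal gene expression. Every animal in both groups carries the transgenes, so no comparison with a non-transgenic animal was made, and the labels name a food dye used to tell the chows apart without saying which chow held it.

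In the brain, dense collagen fibrils are confined mostly to the meninges and to the walls of larger vessels. Capillaries are wrapped in a basement membrane, a thin sheet in which a collagen IV network and a laminin network are joined by nidogens and perlecan. Fibronectin and collagen VI are further parts of vessel walls, and the small leucine-rich proteoglycans decorin and lumican bind collagen fibrils. SPARC is a secreted glycoprotein that binds collagen and is made by glia and endothelial cells. Because whole hippocampus was sequenced, fewer cells of a type and less RNA per cell cannot be told apart.

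Total estimated counts ran from 8764266 to 11131412 in untreated and from 9535071 to 11311673 in RG2833 animals, and 3 counts corresponded to between 0.268 and 0.343 CPM (TMM-scaled counts divided by the library size in units of 1e6 counts, the level used throughout). CPM is not corrected for gene length, so levels are compared between animals and not between genes. The labels do not say whether the animals came from separate litters or cages. Untreated replicate 1 stood apart in choroid plexus transcripts: Ttr was at 2381 CPM there and between 3.80 and 38.4 CPM in the other 9 animals. Ribosomal RNA loci held 2.70% to 5.36% of counts in untreated and 1.13% to 1.96% in RG2833 animals, so this share and the treatment cannot be told apart. All 10 genes listed as markers of excitatory neurons were tested and had log2 fold changes above 0 (median 0.52). Of these, 6 passed at an unadjusted p under 0.05 and 2 rose, Camk2a and Rbfox3 (edgeR; DESeq2 called 5 and limma-voom 3). The summed level of the 10 was 7857 to 10681 CPM in untreated and 11400 to 13109 CPM in RG2833 animals.

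Of the 43 genes, 34 passed the filter on low counts. In RG2833 animals 3 of these 34 (8.82%) fell and 0 rose. A gene was called where its p from the quasi-likelihood test of edgeR, adjusted by Benjamini and Hochberg's method over all 11791 tested genes, was under 0.05. Over all tested genes, 5.08% were called, 2.67% lower and 2.41% higher. A count of 3 stands too near that background to set the matrix genes apart as a group. The genes that fell were Col6a2, a chain of the beaded-filament collagen VI, Fn1, which encodes fibronectin, and Sparc. At an unadjusted p under 0.05, 9 of the 34 genes passed (26.5%), against 24.5% of all tested genes: 7 were lower (background 12.7%) and 2 higher (background 11.8%). The median log2 fold change was -0.10 over the 34 genes and -0.0035 over all tested genes, and 19 of the 34 (55.9%) were below 0, against 50.6% of all. In 1 of the 34 (2.94%), Fn1, the animals of the groups did not overlap, against 7.27% of all tested genes (3.47% lower).

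**Figure D1:**
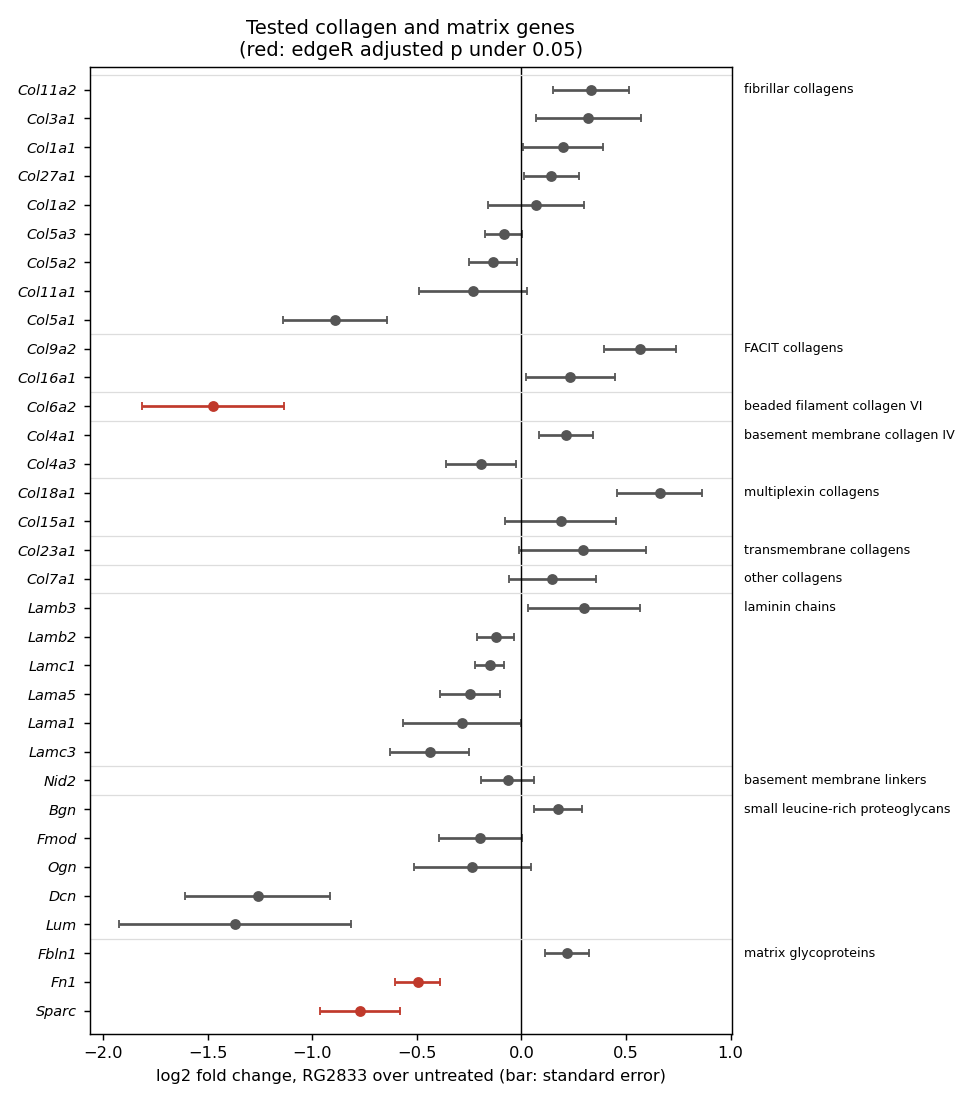
Log2 fold change of RG2833 over untreated animals (x axis) for 33 of the 34 tested collagen and matrix genes (y axis), grouped by class, with bars for the standard error and red points for genes at an edgeR adjusted p under 0.05. Points lie on both sides of 0, from -1.47 (Col6a2) to 0.66 (Col18a1), and the 3 red points, Col6a2, Fn1 and Sparc, are all below 0.

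Sparc and Fn1 encode secreted glycoproteins that bind collagen, and fibronectin also binds integrins on cells. Sparc was at 653, 1091, 1000, 477 and 729 CPM in untreated replicates 1 to 5, and at 438, 465, 408, 572 and 430 CPM in RG2833 replicates 1 to 5. Untreated replicates 2 and 3 were the highest, and untreated replicate 4 lay within the RG2833 range, so the groups overlapped. Sparc fell from 790 ± 253 to 463 ± 64.5 CPM (mean ± SD of 5 animals), which is a log2 difference of -0.77 ± 0.19 (SE, adjusted p by edgeR = 0.0413). The call ended with limma-voom (adjusted p = 0.0514), with limma trend at a pseudocount of 0.1 (0.0507), with a choroid plexus or fibroblast marker score in the edgeR fit (0.0541 and 0.0917) and with 1 surrogate variable (0.261). The CPM of the 43 genes summed in each animal, Sparc included, was 1923 ± 307 CPM in the untreated group and 1616 ± 77.6 CPM in the RG2833 group (mean ± SD of 5 animals). Without it the sums were 1133 ± 111 and 1153 ± 115 CPM, which differ by less than the spread between animals. Parts of this sum moved in both directions. The 27 collagens were at 728 ± 115 and 806 ± 118 CPM, with Col11a2 at 293 ± 82.3 and 369 ± 60.6 CPM among them. The 7 laminins were at 158 ± 8.83 and 141 ± 8.44 CPM.

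Fn1 was the single gene of the 34 whose animals separated completely. Its levels were 99.0, 117, 152, 114 and 102 CPM in untreated replicates 1 to 5 and 80.0, 88.3, 74.8, 87.0 and 83.6 CPM in RG2833 replicates 1 to 5. Each untreated animal lay above each RG2833 animal, with untreated replicate 3 highest. The mean fell from 117 ± 21.3 to 82.8 ± 5.47 CPM (mean ± SD of 5 animals), which is a log2 difference of -0.50 ± 0.11 (SE, adjusted p by edgeR = 0.0284). Fn1 was also called by DESeq2 and limma-voom and with either marker score, and not with 1 surrogate variable (adjusted p = 0.143). Fbln1, which encodes the fibronectin-binding glycoprotein fibulin 1, was at 37.9 ± 2.85 and 44.2 ± 6.57 CPM, and its change of 0.22 ± 0.10 (log2, SE) did not pass (adjusted p by edgeR = 0.215).

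The start of the Sparc gene is shown because Sparc is the called gene with an entry in the RefSeq promoter table (GRCr8), which held 31 of the 43 genes. The 250 bases upstream of its start lie at chr10:40038817-40039066 on the minus strand, and capitals mark GGAGGAG, a purine repeat searched after the sequence had been seen.
Sparc: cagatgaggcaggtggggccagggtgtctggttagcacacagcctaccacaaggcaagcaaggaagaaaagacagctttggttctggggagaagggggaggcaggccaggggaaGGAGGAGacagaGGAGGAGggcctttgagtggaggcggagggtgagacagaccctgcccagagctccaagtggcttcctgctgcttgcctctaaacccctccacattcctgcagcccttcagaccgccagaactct
On either strand, GGAGGAG occurred in 14.2% of all 33469 windows of this length and in 9 of the 31 matrix gene windows (29.0%). The TATA box TATAAA (12.9% of all windows), the CCAAT box (34.0%) and the GC box GGGCGG (30.5%) were not found in the Sparc window, and they occurred in 4, 9 and 16 of the 31 windows. Matches of different motifs could overlap and were counted separately.

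Col6a2 was the only collagen VI chain tested. It was at 28.5, 25.5, 69.5, 14.7 and 55.5 CPM in untreated replicates 1 to 5, and at 13.3, 15.3, 13.6, 15.1 and 12.3 CPM in RG2833 replicates 1 to 5. The RG2833 animals lay close together, whereas untreated replicates 3 and 5 were high and untreated replicate 4 lay inside the RG2833 range. The mean fell from 38.7 ± 22.8 to 13.9 ± 1.27 CPM (mean ± SD of 5 animals), which is a log2 difference of -1.47 ± 0.34 (SE, adjusted p by edgeR = 0.0342). The call ended with limma-voom (adjusted p = 0.0773), with the fibroblast marker score in the edgeR fit (0.0593) and with 1 surrogate variable (0.136). Col6a4, another chain of this collagen type, had too few counts to be tested, with 0.396 ± 0.208 and 0.135 ± 0.104 CPM.

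The small leucine-rich proteoglycans Dcn (decorin) and Lum (lumican) had the next largest differences. Neither passed with edgeR, while DESeq2 called Dcn (adjusted p = 0.00538) and not Lum (adjusted p = 0.158). Dcn was at 12.6, 13.4, 25.8, 9.12 and 30.9 CPM in untreated replicates 1 to 5 and at 5.06, 11.6, 7.55, 9.31 and 4.60 CPM in RG2833 replicates 1 to 5. As for Col6a2, untreated replicates 3 and 5 were the highest and untreated replicate 4 the lowest of its group. The log2 fold change of Dcn was -1.26 ± 0.35 (SE, adjusted p by edgeR = 0.0561). Lum ranged more widely, from 1.86 CPM in untreated replicate 4 to 27.0 CPM in untreated replicate 3, with 14.6, 4.20 and 9.63 CPM in untreated replicates 1, 2 and 5. In RG2833 replicates 1 to 5 it was at 5.91, 4.37, 2.17, 5.90 and 3.77 CPM, so untreated replicates 2 and 4 fell within or below that range. The log2 fold change of Lum was -1.37 ± 0.56 (SE, adjusted p by edgeR = 0.154). The other proteoglycans of this class, Bgn (biglycan), Fmod (fibromodulin) and Ogn (osteoglycin), had log2 fold changes of 0.17, -0.20 and -0.23, with standard errors of 0.12, 0.20 and 0.28.

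**Figure D2:**
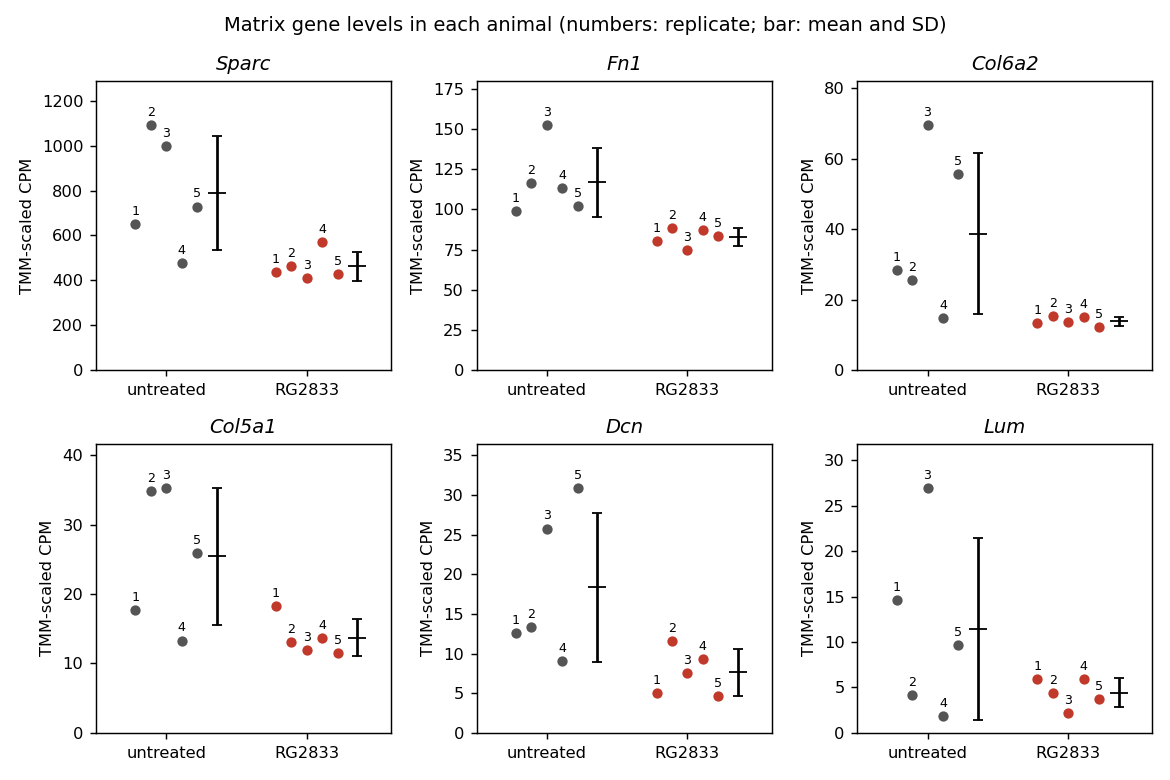
TMM-scaled CPM (y axis, from 0) of Sparc, Fn1, Col6a2, Col5a1, Dcn and Lum in each untreated (grey) and RG2833 (red) animal, numbered by replicate, with the mean and SD of 5 animals beside the points. The Fn1 groups separate, with all untreated animals at 99.0 CPM or more, while in the other 5 panels untreated replicate 4 is the lowest untreated animal and lies near or within the RG2833 points.

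Fibrillar collagens assemble into the fibres of connective tissue, and 9 of the 10 chains in the table were tested. None of the 9 was called (edgeR and limma-voom), while Col5a1 passed at an unadjusted p under 0.05 and with DESeq2 (adjusted p = 0.00919). Col5a1, a chain of the collagen V that starts fibrils, was at 17.7, 34.9, 35.3, 13.3 and 25.9 CPM in untreated replicates 1 to 5. In RG2833 replicates 1 to 5 it was at 18.2, 13.1, 11.99, 13.7 and 11.5 CPM, so untreated replicates 2, 3 and 5 lay above all RG2833 animals and replicates 1 and 4 did not. Its log2 fold change was -0.89 ± 0.25 (SE, adjusted p by edgeR = 0.0581). The other collagen V chains differed less, with -0.13 ± 0.11 for Col5a2 and -0.08 ± 0.09 for Col5a3 (log2, SE).

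The chains of the main fibril collagens of connective tissue differed by little more than their standard errors. Col1a1 was at 7.94 ± 1.44 and 9.14 ± 2.44 CPM (log2 fold change 0.20 ± 0.19, SE, adjusted p by edgeR = 0.548), and Col1a2 at 6.60 ± 1.59 and 6.93 ± 2.29 CPM (0.07 ± 0.23). Col3a1, the chain of collagen III, was at 3.15 ± 1.00 and 3.91 ± 1.08 CPM (0.32 ± 0.25, SE, adjusted p by edgeR = 0.455). Thus the values of these fibril chains lay above 0 while those of Col6a2, Col5a1, Dcn and Lum lay below it, and the difference between the genes was not tested. Col11a2, a collagen XI chain, was at 293 ± 82.3 and 369 ± 60.6 CPM, and its change of 0.33 ± 0.18 (log2, SE) did not pass (adjusted p by edgeR = 0.273). Col11a1 and Col27a1 had log2 fold changes of -0.23 ± 0.26 and 0.14 ± 0.13 (SE).

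Collagen IV, the network collagen of basement membranes, was represented by Col4a1 and Col4a3 among the tested genes. Col4a1 was between 51.5 and 77.3 CPM in untreated and between 61.6 and 90.7 CPM in RG2833 animals. The groups overlapped widely, and the log2 fold change of 0.21 ± 0.13 (SE) did not pass (adjusted p by edgeR = 0.318). Col4a3 was at 5.44 ± 0.964 and 4.76 ± 0.701 CPM (-0.19 ± 0.17, log2, SE, adjusted p by edgeR = 0.511). Nid2, a nidogen that joins laminin to collagen IV, was nearly level at 6.37 ± 0.609 and 6.09 ± 0.517 CPM (-0.07 ± 0.13, log2, SE, adjusted p by edgeR = 0.789).

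Laminins are made of an alpha, a beta and a gamma chain. All 7 chains in the table were tested and 0 were called (edgeR); 1 passed at an unadjusted p under 0.05, and DESeq2 and limma-voom called 0. The log2 fold change was below 0 for 6 of the 7, with Lamb3 as the exception (0.30 ± 0.27, SE) at 1.47 ± 0.420 and 1.80 ± 0.472 CPM. Lamc1, the gamma chain shared by most vascular laminins, was between 50.6 and 57.3 CPM in untreated and between 43.7 and 53.3 CPM in RG2833 animals (-0.15 ± 0.07, log2, SE, adjusted p by edgeR = 0.207). Lamb2 was at 71.5 ± 7.54 and 65.7 ± 5.48 CPM (-0.12 ± 0.09, log2, SE), and Lama5 at 11.99 ± 1.93 and 10.1 ± 1.39 CPM (-0.24 ± 0.14). Lamc3 had the smallest p of the class, with a log2 fold change of -0.44 ± 0.19 (SE, adjusted p by edgeR = 0.175). Its highest values, 16.7 and 15.4 CPM, were again in untreated replicates 3 and 5, and its RG2833 values ran from 8.16 to 10.5 CPM. The summed level of the 7 chains was 158 ± 8.83 CPM without and 141 ± 8.44 CPM with RG2833 (SD, n = 5).

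Of the remaining collagens, those with the largest positive values were Col18a1 and Col9a2. Neither passed with edgeR, while DESeq2 called both higher (adjusted p = 0.0234 and 0.0265). Col18a1 encodes a basement membrane collagen whose C-terminal fragment is endostatin. It was at 16.2, 16.8, 14.1, 25.1 and 14.3 CPM in untreated replicates 1 to 5, and at 20.03, 26.0, 33.2, 20.7 and 37.3 CPM in RG2833 replicates 1 to 5. Untreated replicate 4 was the only untreated animal within the RG2833 range, and the log2 fold change was 0.66 ± 0.20 (SE, adjusted p by edgeR = 0.0758). Col9a2, a collagen IX chain of the class that decorates fibrils, was at 13.7 ± 3.69 and 20.2 ± 3.18 CPM (0.57 ± 0.17, log2, SE, adjusted p by edgeR = 0.0757). Col16a1, of the same class, was at 71.2 ± 23.7 and 83.8 ± 14.6 CPM (0.23 ± 0.21, adjusted p by edgeR = 0.523). Col15a1, Col23a1 and Col7a1 had log2 fold changes of 0.19, 0.29 and 0.15, against standard errors of 0.26, 0.30 and 0.21. Among all 18 tested collagen chains, 12 had a log2 fold change above 0 and 6 below.

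The 9 genes below the filter were Col2a1, Col4a4, Col6a4, Col8a1, Col9a1, Col13a1, Col14a1, Col17a1 and Col26a1, with group means between 0.0625 and 1.46 CPM. They were left out of the main test, and in the edgeR fit with no filter on low counts 0 of the 9 were called. Col8a1 was at 2.06 CPM in untreated replicate 1, the animal with the high Ttr level, and no higher than 0.317 CPM in any other animal. Col9a1 was highest in untreated replicates 1 and 2, at 2.06 and 3.70 CPM.

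**Figure D3:**
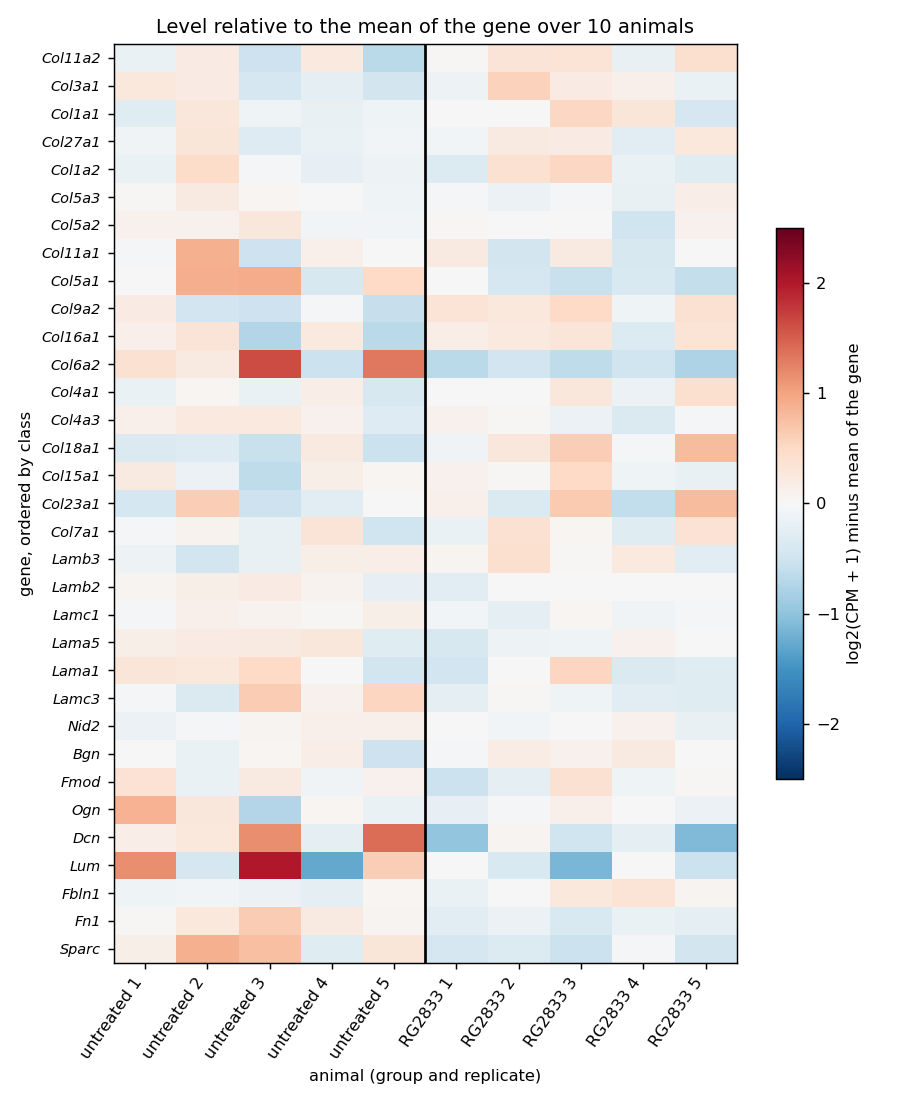
Colour shows log2(CPM + 1) minus the mean of the gene over all 10 animals, for 33 of the 34 tested genes (rows, ordered by class) in each animal (columns, with a line between the groups). Untreated replicates 3 and 5 are high for Col6a2 and Dcn, untreated replicates 2 and 3 for Sparc and Col5a1, and untreated replicate 4 resembles the RG2833 columns for these genes.

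The 3 calls were not stable when 1 animal was left out. Fn1 was called in 4 of the 10 fits that each left out 1 animal, Col6a2 in 3 and Sparc in 2, and 0 of them in any fit without an RG2833 animal. When untreated replicate 4 was left out, the calls rose to 8 of 34 (edgeR): Col5a1, Col6a2, Dcn, Fn1, Lum and Sparc lower, and Col18a1 and Col9a2 higher, while 13.1% of all tested genes were called. Without untreated replicate 1, the animal with choroid plexus transcripts, 2 were called (Fn1 lower, Col9a2 higher), and without untreated replicate 2 or 3 only 1 each, Col6a2 and Fn1. Calls over all tested genes fell in the same fits, to 1.63% without untreated replicate 1, 2.37% without replicate 2, 0.954% without replicate 3 and 0.826% to 1.80% without an RG2833 animal, against 5.08% with all animals. Over the 10 fits, the log2 fold change ran from -0.55 to -0.39 for Fn1, from -1.68 to -1.16 for Col6a2 and from -0.91 to -0.63 for Sparc. When that share of ribosomal RNA counts entered the fit, the log2 fold changes of Fn1, Col6a2 and Sparc were -0.11, -0.72 and 0.12 (a reversed sign for Sparc), and the edgeR adjusted p was 1.00 for each. Since it separates the groups as the treatment does, the share and RG2833 cannot be told apart in these results.

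**Figure D4:**
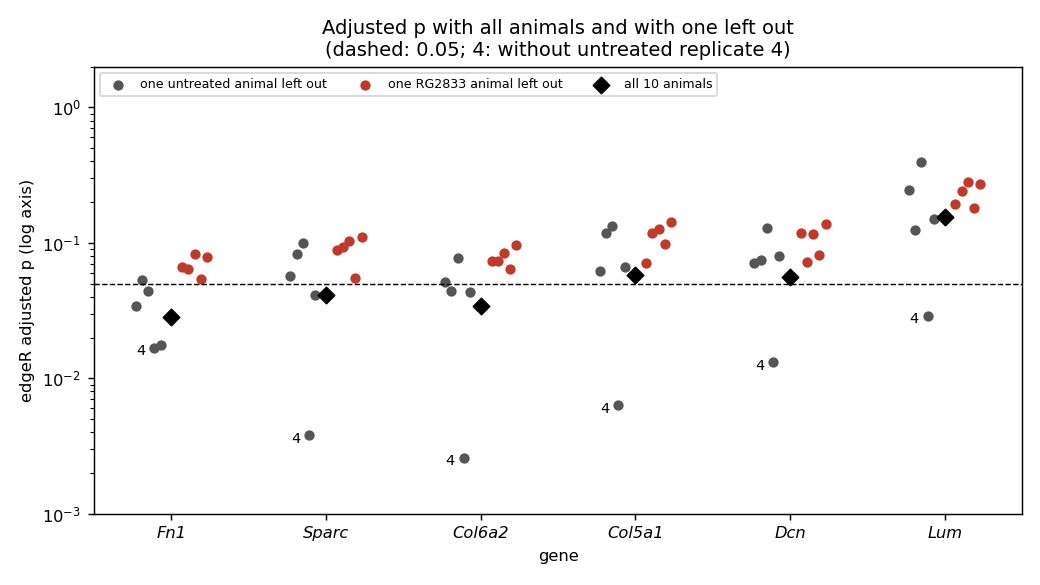
EdgeR adjusted p (y axis, log scale) for 6 genes with all 10 animals (diamonds) and with 1 untreated (grey) or 1 RG2833 (red) animal left out; the dashed line is 0.05. Only the fit without untreated replicate 4, marked 4, puts all 6 genes under the line, and each fit without an RG2833 animal puts all 6 above it.

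Markers of the cells that make vascular matrix were read beside these results. All 12 endothelial markers had log2 fold changes below 0 (median -0.33), 7 at an unadjusted p under 0.05, and 0 were called (edgeR; DESeq2 called 2, Tek and Cldn5, and limma-voom 0). The largest were Tek, -0.44 ± 0.13, and Cldn5, -0.44 ± 0.14 (log2, SE). The summed level of the 12 markers was 516 to 756 CPM in untreated and 487 to 588 CPM in RG2833 animals. Untreated replicates 2 and 3, the highest for Sparc, were the highest here too, at 738 and 756 CPM. Untreated replicate 4, the lowest of its group for Sparc, was at 630 CPM here, above all RG2833 animals. Untreated replicates 1 and 5 were at 566 and 516 CPM, within the RG2833 range, while their Sparc levels lay above all RG2833 animals. Of 11 mural cell markers, 9 were below 0 and 0 were called (edgeR, DESeq2 and limma-voom; 1 at an unadjusted p under 0.05), with sums of 224 to 274 and 198 to 237 CPM. Of 10 tested markers of meningeal and perivascular fibroblasts, 7 were below 0, and 0 were called by edgeR, DESeq2 or limma-voom or passed at an unadjusted p under 0.05. Summed over all 13 markers in the table, they reached 60.2 to 206 CPM in untreated and 56.6 to 77.8 CPM in RG2833 animals, and the highest, in untreated replicate 1, was mostly Igf2 at 150 CPM. Untreated replicates 3 and 5, the highest for Col6a2 and Dcn, had fibroblast sums of 77.5 and 65.6 CPM, within the RG2833 range. For microglia, 11 of 12 markers were below 0 (median -0.25), 3 passed at an unadjusted p under 0.05 and 1 fell (Aif1, -0.74 ± 0.20, log2, SE, adjusted p by edgeR = 0.0496), with sums of 593 to 960 and 595 to 744 CPM. DESeq2 called Aif1 as well, and limma-voom called 0 microglial markers. Of 8 markers each of astrocytes, oligodendrocytes and inhibitory neurons, 4, 0 and 6 were below 0, and edgeR, DESeq2 and limma-voom called 0 (1, 0 and 0 at an unadjusted p under 0.05). The 12 choroid plexus markers summed to 2888 CPM in untreated replicate 1, to 65.1 to 107 CPM in untreated replicates 2 to 5 and to 80.3 to 165 CPM in RG2833 animals. Of the 4 tested, all were below 0 and 1 fell, Prlr. For the other 3, Ttr, Clic6 and Enpp2, untreated replicate 1 was the highest animal. Enpp2 was at 359 CPM there, at 51.5 to 93.2 CPM in untreated replicates 2 to 5 and at 72.6 to 113 CPM in RG2833 animals. In the fits with a choroid plexus or fibroblast score given above, the Sparc call ended with either score and the Col6a2 call with the fibroblast score. Calls over all tested genes fell to 1.70% and 2.66% in these fits. No score of another cell type entered a fit, and the part of any of these cell types in the results was not tested.

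Genes that build, cut, bind and regulate the matrix were read from lists chosen with earlier results of these data known. Of 115 such genes tested, each counted once, 6 were called (5.22%), 3 higher and 3 lower, against 5.08% of all tested genes. With library totals only, 3 were called. Leaving out 1 animal gave 0 to 14, the highest without untreated replicate 4, while 0.826% to 13.1% of all tested genes were called. Of 24 enzymes and chaperones of collagen modification and assembly, 0 were called (edgeR, DESeq2 and limma-voom), 6 passed at an unadjusted p under 0.05, 3 in each direction, and the median log2 fold change was 0.0046. The largest differences there were those of Adamts2, a procollagen-cleaving protease (-1.18 ± 0.54), and Loxl4, a collagen-crosslinking oxidase (1.17 ± 0.49, log2, SE). Of 21 matrix proteases and their inhibitors, 0 were called (edgeR and limma-voom; DESeq2 called Timp2), 5 passed at an unadjusted p under 0.05 and the median was -0.06. The largest values were those of Timp2, an inhibitor of matrix metalloproteinases (-0.93 ± 0.27, log2, SE, adjusted p by edgeR = 0.0644), and Mmp9, a gelatinase (-0.52 ± 0.19).

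Among 18 tested matrix receptors, 1 fell and 2 rose, against 2.67% and 2.41% of all tested genes. At an unadjusted p under 0.05, 6 were lower and 5 higher (background 12.7% and 11.8%), and no list was tested as a set. The 3 calls ended without untreated replicate 3 or RG2833 replicate 2, 3 or 5, with 1 surrogate variable and with the ribosomal RNA share. In those fits 0.017% to 0.995% of all tested genes were called. Itgb1, the beta chain shared by most collagen, laminin and fibronectin receptors, fell from 90.7 ± 5.87 to 71.8 ± 6.87 CPM (mean ± SD of 5 animals; log2 fold change -0.34 ± 0.08, SE, adjusted p by edgeR = 0.0350). Its untreated values of 96.4, 95.7, 92.1, 83.7 and 85.4 CPM all lay above its RG2833 values of 61.8, 69.7, 71.8, 80.4 and 75.1 CPM. Ddr1, a receptor tyrosine kinase that binds collagen, rose from 67.5 ± 11.8 to 93.9 ± 9.80 CPM (0.48 ± 0.12, log2, SE, adjusted p by edgeR = 0.0402). Sdc2, a heparan sulfate proteoglycan of the cell surface, rose from 43.1 ± 5.56 to 55.3 ± 4.06 CPM (0.36 ± 0.09, adjusted p by edgeR = 0.0484). Animals of the groups did not overlap for these 3 receptors, which are given because they were called; over all tested genes 7.27% did not overlap (3.47% lower, 3.80% higher). The list's largest differences, Itga8 (-1.39 ± 0.40) and Itga11 (0.83 ± 0.38, log2, SE), did not pass with edgeR. DESeq2 called 3 receptors higher and 2 lower, Itga8 among the latter.

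The matrix of hyaluronan and perineuronal nets, which surrounds neurons, differs in makeup from the collagen matrix. Of 11 tested genes, 1 rose, 0 fell and 9 had a log2 fold change above 0 (median 0.26). Over all tested genes 2.41% were called higher and 2.67% lower, which is the background for each list of this paragraph. Hapln4, a link protein that ties proteoglycans to hyaluronan, rose from 423 ± 173 to 716 ± 25.6 CPM (mean ± SD of 5 animals; log2 fold change 0.76 ± 0.20, SE, adjusted p by edgeR = 0.0494). Untreated replicate 4 was at 723 CPM, inside the RG2833 range of 690 to 756 CPM, and the other untreated animals were between 307 and 420 CPM. The genes listed above as excitatory neuron markers, which include general neuron markers, also had higher sums in RG2833 animals. Their part in this result was not tested. In the TGF-beta pathway, which drives matrix genes in fibroblasts, 1 of 18 genes fell. This was Ctgf, a matricellular growth factor, from 53.7 ± 11.1 to 33.0 ± 4.10 CPM (-0.70 ± 0.14, log2, SE, adjusted p by edgeR = 0.0212). Of 23 other secreted matrix proteins, 1 fell: Aspn (asporin), a small leucine-rich protein related to decorin, from 1.41 ± 0.380 to 0.395 ± 0.193 CPM (-1.80 ± 0.35, log2, SE, adjusted p by edgeR = 0.0186). Its RG2833 values of 0.207 to 0.668 CPM included values at or below 3 counts, so the size of this change is poorly determined, and DESeq2 did not call it.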

How the data were processed

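Per the submitters' processing notes, bcl2fastq 2.17, Bowtie2 2.1.0, RSEM 1.2.15, edgeR and the rn6 build were used; libraries were strand-specific, per the labels' protocols. The authors deposited expected counts per gene (RSEM, unnormalized) and a TMM-scaled CPM signal. The expected counts were rounded, and genes were filtered with filterByExpr by group (minimum count 10). Groups were compared in edgeR 4.0.16 under R 4.3.3, by the quasi-likelihood F test after TMM scaling and without covariates, and genes were called at an adjusted p under 0.05 over 11791 genes. Standard errors were derived as the absolute log2 fold change over the root of F. The deposited signal served in limma 3.58.1 (trend, pseudocounts 1 and 0.1). Other alternatives were DESeq2 1.42.0, limma-voom, other scalings and filters, covariates, 1 surrogate variable (sva 3.50.0), a replicate block and leaving out each animal.

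The members and gene lists were chosen with earlier results of these data known. Full values were given for members called, not overlapping between groups, among the 5 largest changes (mean log2 CPM at least 0) or the 6 highest levels, and for a fixed set; other members appear by value or range, and list genes if called or among the 2 largest changes. Some rows named beyond this rule were chosen after their values were seen (Col18a1, Col9a2, Lamc3, Fbln1, Lamb3, Col8a1, Col9a1, Enpp2, Snap25). In simulated counts (11811 genes tested), the test recovered 38 of 100 genes changed by 0.5 log2 units and 90 of 100 changed by 1, with 9 false calls. Changed genes were drawn above a minimum mean count, and genes were simulated independently with the same dispersion in both groups. In the data 75.5% of tested genes varied more in untreated animals, so these numbers may not carry over. Of the tested genes, 1 enters the counts, sums and medians but is not reported here by name, and 42 genes were checked for outlying animals. Replicates differed beyond sampling noise, so each library was counted as 1 animal. Of the members, 4 overlap another gene of the count table on GRCr8 (Col1a1, Col27a1, Col6a4 and Col7a1), so their counts are less certain. Counts carry no molecular identifiers, so the floor of 3 counts covers counting error only.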

Additional observations from a re-analysis of the deposited data

Results flagged for a closer look

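Among 88 groups of 5 values (42 genes, the total count and the summed share of these genes, with and without RG2833), 6 had 1 animal whose gap to the next, relative to the whole range, reached Dixon's critical value of 0.71, and chance alone flags about 5% of groups. In the untreated group these were Col18a1 at 25.1 CPM in replicate 4 (next 16.8 CPM), Col1a1 at 10.4 CPM in replicate 2 (next 7.72 CPM), Col1a2 at 9.39 CPM in replicate 2 (next 6.39 CPM) and Col8a1 at 2.06 CPM in replicate 1 (next 0.317 CPM). In the RG2833 group they were Col5a2 at 37.3 CPM in replicate 4 (next 52.5 CPM) and Lamb2 at 56.0 CPM in replicate 1 (next 67.6 CPM). Col1a1 and Col1a2, which encode the chains of the same collagen I molecule, were both high in untreated replicate 2.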

How the results depend on the processing

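With all animals, 599 genes, 3 matrix genes and 6 genes of the pathway lists were called. The 3 numbers were 1295, 7 and 8 with DESeq2, 549, 1 and 6 with limma-voom, 595, 3 and 3 with library totals only, 201, 3 and 3 with a choroid plexus covariate (Col5a1 in place of Sparc), 314, 1 and 3 with a fibroblast covariate, 49, 0 and 0 with 1 surrogate variable and 2, 0 and 0 with the ribosomal RNA share. An adjusted p under 0.1 gave 1466 genes and 7 matrix genes. Leaving out each animal gave 98 to 1556 genes, 0 to 8 matrix genes and 0 to 14 pathway genes, the highest in each case without untreated replicate 4. Higher calls were 47.4% of all calls with TMM scaling and 38.3% with library totals only. The median log2 fold change of the matrix genes stayed between -0.14 and -0.04 except with the ribosomal RNA share (0.021), where Sparc reversed to 0.12. The cause of these shifts was not tested. Of 340 single-gene values with an animal left out, 21 lost and 6 gained a call; of 437 under the 13 other settings, 14 lost and 5 gained one. The replicate numbers name different animals and did not pair them (mean correlation of deviations -0.066); with the replicate block 180 genes, 0 matrix genes and 1 pathway gene were called. In the simulated counts, whose limits are given above, changes of 0.5 log2 units were often missed.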

Other observations

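Untreated replicate 4 lay inside the RG2833 range for 26 of the 34 tested matrix genes (76.5%) and for 60.0% of all 11791 tested genes. The other untreated animals did so for 11 to 22 of the 34 genes and for 37.0% to 48.8% of all genes. The coefficient of variation was larger in untreated than in RG2833 animals for 23 of the 34 matrix genes (67.6%) and for 75.5% of all tested genes. Among the genes named above, it was 59.0% and 9.08% for Col6a2, 48.4% and 11.3% for Ogn, 30.0% and 10.7% for Lamc3, and 24.1% and 33.1% for Col1a2, in untreated and RG2833 animals.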
